A study of Vitis vinifera with 11 samples.

Results

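Messenger RNA of young grapevine (Vitis vinifera) inflorescences was compared with that of leaves, in 8 of the 11 libraries of the study. The 6 inflorescence libraries came from nodes 1, 2 and 3 counted from the shoot apex, with 1 library per node from each of the picovine lines 06C021V0046 and 06C008V0003. The 2 leaf libraries were pools of immature leaves of all 3 nodes, 1 of the line 06C021V0046 and 1 of the control, Pinot Meunier L2. The other 3 libraries, tendrils of Pinot Meunier L2 at the same nodes, entered the statistical model but not the comparison. All plants had grown under controlled long days with cooler nights, without further treatment named in the labels. Picovines are dwarf vines, and the labels do not say how many plants gave a library. Both leaf pools are labelled as lying across from inflorescences, yet the protocol has only tendrils on Pinot Meunier L2, so the place of its leaves is uncertain. Only 06C021V0046 supplied both organs, so every gene was also looked at in that line alone, with 3 inflorescence libraries against 1 leaf pool. The protocol spells this line 04C021V0046 and the sample labels 06C021V0046, and both were taken as 1 line.

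In flowering plants the identity of the floral organs is set by MADS-box transcription factors that act in overlapping combinations. Class A genes act in the outer whorls, class B genes in petals and stamens, class C genes in stamens and carpels, class D genes in ovules, and SEPALLATA proteins are their shared partners. Grapevine bears tendrils, and inflorescences and tendrils arise from the same kind of lateral primordium. By contrast, leaves arise on the flanks of the apex and build the photosynthetic machinery.

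Expression was deposited as RPKM, the reads of a gene per kilobase of its length and per 1000000 mapped reads. Depth, in units of 1000000 reads, was 11.36 to 14.55 in inflorescences, against 9.21 in leaves of 06C021V0046 and 14.99 in leaves of Pinot Meunier L2. At these depths 3 reads in a gene of 1 kilobase stand for 0.200 to 0.326 RPKM. A change is given as the inflorescence mean minus the leaf mean on the log2(RPKM + 1) scale with its standard error, a scale on which changes of weakly expressed genes come out too small. A gene was called when the adjusted p of the limma test over 19761 genes was under 0.05. As a check of the labels, the summed RPKM of the floral markers MADS9, TM6, AP3, AG and MADS2 lay between 1142 and 2054 in the inflorescence libraries and was 5.01 and 2.37 in the 06C021V0046 and Pinot Meunier L2 leaf pools, where AP3 and MADS2 were at 0. The summed RPKM of 5 photosynthesis genes ran the other way, with 173 to 446 in inflorescences against 565 and 893 in those leaf pools.

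Every floral MADS-box gene of the list except MADS8 was higher in each inflorescence library than in either leaf pool. Of 11 floral MADS-box genes, 10 rose and 1 fell. Over all tested genes 5.39% rose and 7.55% fell. The list had a median change of 5.75 on the log2 scale, against 0.01 over all tested genes. In 06C021V0046 alone, all 3 inflorescence libraries lay above the leaf pool for those 10 genes and below it for the gene that fell, where 23.0% of all tested genes lay above and 29.6% below. In bulk tissue, fewer cells of a type and less RNA per cell cannot be told apart.

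The class B gene MADS9, the grapevine PISTILLATA, had the largest change of the list. It had 578 and 583 RPKM at node 1, 635 and 723 at node 2 and 699 and 950.5 at node 3 of 06C021V0046 and 06C008V0003, against 0.630 RPKM in leaves of 06C021V0046 and 0.232 in leaves of Pinot Meunier L2. Its change was 8.92 ± 0.21 (adjusted p = 6.44e-09), and the pooled leaf reads numbered 8, so that depth-scaled reads were 1822 times as many in inflorescences (95% counting interval 925 to 4220.4). TM6, a class B gene of an older APETALA3 lineage, ran from 206 to 380.3 RPKM in inflorescences (median 220.2), against 0.532 and 0.720 in the 06C021V0046 and Pinot Meunier L2 leaf pools (7.25 ± 0.24). AP3, their sister gene, ran from 61.1 to 108 RPKM in inflorescences (median 75.6) and had no read in either leaf pool (6.33 ± 0.28). For such genes a fold in depth-scaled reads is a lower bound, taken against a floor of 3 reads over both leaf pools, and AP3 was at least 783-fold higher. For these 3 genes the lowest inflorescence library stood far above both leaf pools.

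Genes of classes C and D and of the SEPALLATA kind were also higher. The SEPALLATA gene MADS2 ran from 180.3 to 235 RPKM (median 192) in inflorescences with no read in either leaf pool, at least 1753-fold higher (7.63 ± 0.21). AG, a class C gene acting in stamens and carpels, had 86.2 and 86.4 RPKM at node 1, 183 and 213 at node 2 and 307 and 380.1 at node 3 of the picovine lines, against 3.85 and 1.42 in the 06C021V0046 and Pinot Meunier L2 leaf pools (5.72 ± 0.27). Its near relative MADS1 had 48.1 and 53.2, 92.0 and 94.2, and 130.3 and 167 RPKM at nodes 1, 2 and 3, against 0.503 and 1.29 in those leaf pools (5.60 ± 0.24). Both genes were lowest at node 1 and highest at node 3 in each line, and even node 1 lay clear of the leaves. MADS5, the grapevine AGL11 of ovule identity, showed the same order at a far lower level, with 2.83 and 2.70, 7.91 and 7.23, and 8.5 and 15.5 RPKM at nodes 1, 2 and 3, against 0 and 0.207 in the leaf pools (2.75 ± 0.30). MADS3, an AGL6-like gene, ran from 57.1 to 109.8 RPKM (median 101) in inflorescences, against 0.0951 and 0.876 in the 06C021V0046 and Pinot Meunier L2 leaf pools (6.03 ± 0.33).

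The list also holds genes of meristem identity and flowering time. AP1, which promotes floral meristem identity, ran from 118 to 169 RPKM (median 143) in inflorescences, against 3.04 in leaves of 06C021V0046 and 0.700 in leaves of Pinot Meunier L2 (5.75 ± 0.35). VFUL-L, a FRUITFULL-like gene, ran from 23.3 to 42.3 RPKM (median 32.7) in inflorescences, against 1.96 and 0.391 in those leaf pools (4.08 ± 0.28). MADS8, the grapevine SOC1, which in Arabidopsis integrates flowering signals, was the one member that fell. It ran from 6.71 to 16.3 RPKM (median 7.86) in inflorescences, against 125 and 113 RPKM in the leaf pools (-3.62 ± 0.32, adjusted p = 8.04e-05). All 11 calls were kept in every setting run, including each library left out in turn. MADS2, MADS9 and TM6 were also the only genes called within 06C021V0046 by limma (0.0152% of those tested, adjusted p = 0.0197 for each), where 2105 genes had an unadjusted p under 0.05 and the fit had 2 residual degrees of freedom.

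**Figure D1:**
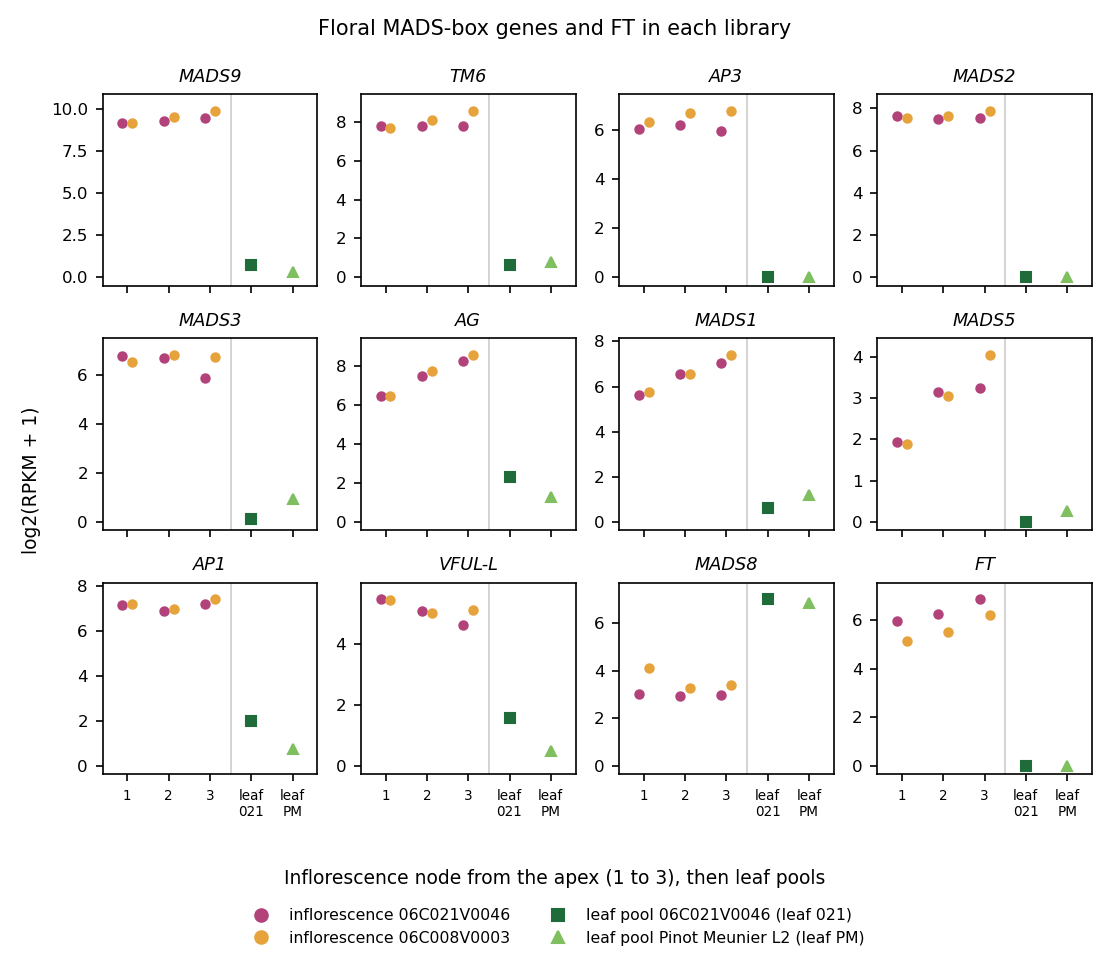
Expression of 11 floral MADS-box genes and FT as log2(RPKM + 1) (vertical axis) in each library, with the inflorescence nodes 1, 2 and 3 left of the grey line and the leaf pools right of it; each point is 1 library. MADS8 is the only one of the 12 genes whose leaf pools lie above all 6 inflorescence libraries, and AG, MADS1 and MADS5 are higher at node 3 than at node 1 in both lines.

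Of 6 flowering regulators, 5 were tested and 1 rose, where 5.39% of all tested genes rose. FT, the florigen that carries the flowering signal, had 60.6, 74.6 and 114 RPKM at nodes 1, 2 and 3 of 06C021V0046 and 34.4, 45.2 and 73.2 RPKM in 06C008V0003, with no read in either leaf pool. It was at least 451-fold higher in inflorescences (5.99 ± 0.34, adjusted p = 2.75e-06), and the call was kept in every setting run. The remaining members were not called, with a list median of 0.05. FCA, an RNA-binding regulator of flowering time in Arabidopsis, ran from 10.2 to 19.8 RPKM in inflorescences, against 12.9 and 15.3 in the leaf pools. AP2 ran from 11.3 to 26.2 RPKM, against 18.6 in leaves of 06C021V0046 and 44.2 in leaves of Pinot Meunier L2. TFL1A, a relative of FT that holds flowering back, had 1.19 and 0.902 RPKM at node 1 of 06C021V0046 and 06C008V0003 and at most 0.0918 at nodes 2 and 3, against 0 and 0.318 in the leaf pools. MFT had 2 reads in all inflorescences and 5 in the leaf pools and was not tested. For FCA, AP2 and TFL1A the organs overlapped.

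Of the gibberellin synthesis genes, GA3ox1 was higher in inflorescences at every node, and GA20ox1 lay above both leaf pools at nodes 2 and 3 only. GA3ox1, which makes bioactive gibberellin, had 32.8, 27.0 and 21 RPKM at nodes 1, 2 and 3 of 06C021V0046 and 29.9, 18.1 and 15.2 RPKM in 06C008V0003, against 4.10 and 4.44 in the leaf pools (2.20 ± 0.24, adjusted p = 0.000347). Its fall along the nodes was not called (-0.39 ± 0.15 per node, adjusted p = 0.0967). For GA3ox1 every inflorescence library was above both leaf pools. GA20ox1, which acts just before it, had 0.864 and 0.596 RPKM at node 1, 13.8 and 6.01 at node 2 and 33.7 and 33.6 at node 3 of the picovine lines, against 2.26 in leaves of 06C021V0046 and 0.521 in leaves of Pinot Meunier L2. Node 1 therefore lay within the range of the leaf pools and node 3 far above it. GA20ox1 was called on the mean of the nodes (1.93 ± 0.37, adjusted p = 0.00692), but not without the Pinot Meunier L2 leaf pool (0.102), with genotype as a block over 11 libraries (0.06) or with the node slope left out of the model (0.345). Of the 5 gibberellin genes 2 rose and none fell, where 5.39% of all tested genes rose and 7.55% fell. The receptor GID1A, the DELLA repressor VVGAI1 and the inactivating enzyme GA2ox6 were not called. VVGAI1 had 7.99 and 4.26 RPKM at node 1 of 06C021V0046 and 06C008V0003 and 0.991 to 2.08 RPKM at nodes 2 and 3, against 2.1 in leaves of 06C021V0046 and 13.6 in leaves of Pinot Meunier L2.

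Signalling genes with a name gave 2 more rises. HP2, a histidine phosphotransfer protein of the kind that relays cytokinin signals, had 34.3 and 30.9 RPKM at node 1 and 12 to 14.1 RPKM at nodes 2 and 3, against 3.04 and 0.659 in the 06C021V0046 and Pinot Meunier L2 leaf pools (2.88 ± 0.38, adjusted p = 0.000895). All 6 inflorescence libraries lay above both leaf pools. Of the other members of its family, HP3 ran from 81.4 to 108 RPKM in inflorescences, against 60.7 and 57.6 in the leaf pools, without a call, and HP4 was too low to test.

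Of 26 calcium sensors of the CBL family and CIPK kinases they bind, 1 rose and 4 fell, with a list median of 0.08, where 5.39% of all tested genes rose and 7.55% fell. Of the 8 CBL genes 7 had a positive change and 1 was called, where the median change of all tested genes was 0.01. CBL05 ran from 7.08 to 13.7 RPKM (median 8.77) in inflorescences, against 1.55 and 1.58 in the leaf pools (2.02 ± 0.39, adjusted p = 0.00708). Of the 18 CIPK genes 7 had a positive change and 4 fell. CIPK10 ran from 9.81 to 29.6 RPKM in inflorescences (median 18.5), against 58.6 in leaves of 06C021V0046 and 119 in leaves of Pinot Meunier L2 (-2.17 ± 0.36). CIPK15 ran from 1.11 to 6.69 RPKM in inflorescences (median 2.05), against 14.8 and 17 in those leaf pools (-2.29 ± 0.37). CIPK16 ran from 0.453 to 1.22 RPKM in inflorescences, against 2.22 and 3.39, without overlap (-1.02 ± 0.23), and CIPK02 from 11.4 to 81.4 RPKM, against 57.6 and 162, with overlap (-1.33 ± 0.38, adjusted p = 0.0453). Both missed the threshold in the block fits over 8 and 11 libraries (0.0542 and 0.13 for CIPK16, 0.235 and 0.348 for CIPK02) and with the leaf pool of Pinot Meunier L2 left out (0.139 and 0.488). The organs did not overlap for CBL05, CIPK10 and CIPK15, but without the Pinot Meunier L2 leaf pool CBL05 and CIPK10 missed the threshold (0.0621 and 0.0566), and with genotype as a block over 11 libraries so did CBL05 (0.103), CIPK10 (0.0617) and CIPK15 (0.0671).

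Over the whole table, more genes were lower than higher in inflorescences. In all 2556 of 19761 genes were called (12.9%), 1065 higher and 1491 lower, and 868 and 1333 of these differed by at least 2-fold. Of the genes that rose, 915 had no overlap between the 6 inflorescence and 2 leaf libraries, and of those that fell 1356 had none. Such a gap upward was found in 10.9% of all tested genes and downward in 12.2%. In 06C021V0046 alone, all 3 inflorescence libraries lay above the leaf pool for 1005 of the genes that rose (94.4%) and below it for 1429 of the genes that fell (95.8%), and all 3 lay on the opposite side for 0. These counts share libraries with the call and are no independent check. A block for genotype fits both leaf pools exactly, so its p-values hold no spread between leaves. With genotype as a block, only the libraries of 06C021V0046 carry the comparison, and 3042 genes were called over the 8 libraries (15.4%) and 1283 over all 11, of which 1796 and 1051 were among the 2556. Without the Pinot Meunier L2 leaf pool 1174 genes were called, without the 06C021V0046 leaf pool 2297, and without the node slope 1651. Calls kept in both block fits and with each library left out in turn numbered 293 upward and 398 downward.

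**Figure D2:**
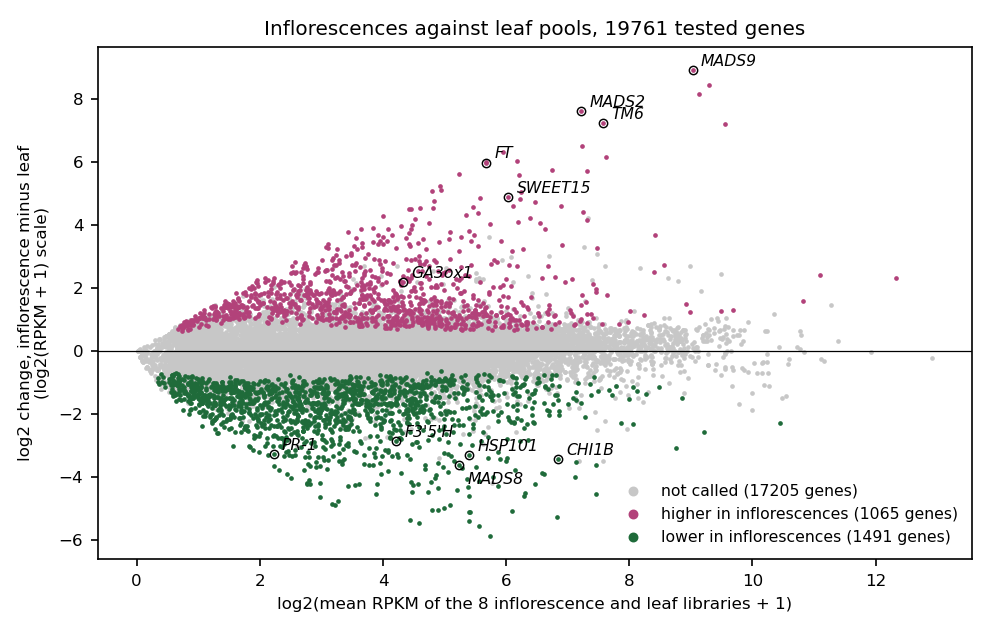
Change of each of the 19761 tested genes, inflorescence minus leaf on the log2(RPKM + 1) scale (vertical axis), against log2 of its mean RPKM over the 8 libraries plus 1 (horizontal axis); each point is 1 gene and named genes are ringed. MADS9 (8.92), MADS2 (7.63) and TM6 (7.25) stand at the top edge, and MADS8 (-3.62), CHI1B (-3.43) and HSP101 (-3.30) among the genes that fell.

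The genes that rose drew away from leaves along the nodes more than those that fell. Their median change was 1.06 at node 1, 1.44 at node 2 and 1.71 at node 3, and it was -1.53, -1.62 and -1.66 for those that fell. A gene already near 0 RPKM in inflorescences has little room to fall further on this scale, so rises and falls are not on equal terms. Of the 1065 that rose, both libraries of node 1 stood clear of both leaf pools for 934, of node 2 for 1062 and of node 3 for 1046. A linear rise along the nodes was called for 303 of them and a fall for 45, where 6.34% of all tested genes had a called rise and 8.64% a called fall. Of the 1491 that fell, 78 had a called rise along the nodes and 100 a called fall. The slope calls were fragile: of 2960 over all genes, 153 were left without the node 3 library of 06C021V0046 and 217 without that of 06C008V0003, and 557 and 397 without the node 1 libraries of these lines. AG, MADS1 and MADS5 rose along the nodes by 0.99 ± 0.17, 0.76 ± 0.15 and 0.87 ± 0.18 per node (adjusted p = 0.00988, 0.0144 and 0.0182), and each missed the threshold without the node 3 library of 06C008V0003 (0.0609, 0.0723 and 0.0835). MADS9, MADS2, TM6 and AP3 had slopes between 0.06 and 0.24 without a call.

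Few transcripts were found in inflorescences and not in leaf pools, by a rule that did not look at tendrils. By the rule of at least 1 RPKM in all 6 inflorescence libraries and no read in either leaf pool, 19 genes qualified, and 3 qualified in the reverse direction. The named ones were MADS2, AP3 and FT. The most abundant was LOC100242221, a gene with no other name, which had 67.9 and 41.5 RPKM at node 1, 476 and 347 at node 2 and 2617 and 1442 at node 3 of 06C021V0046 and 06C008V0003, at least 10758-fold above leaves. LOC100247970 came next, with 27.9 and 2.75, 187 and 195, and 359.6 and 417 RPKM at nodes 1, 2 and 3. Both had a called rise along the nodes (2.58 ± 0.18 and 2.61 ± 0.45 per node, adjusted p = 0.000199 and 0.0106), the second not without the node 3 library of 06C021V0046 (0.0546). LOC100248996 had no such rise, with 40.02 to 62.7 RPKM over the 6 inflorescence libraries. Of the 19 genes, 5 had a called rise and 0 a called fall along the nodes. The 3 genes read in leaf pools but not in inflorescences were low. LOC100243547 had 1.29 and 9.28 RPKM in the 06C021V0046 and Pinot Meunier L2 leaf pools, LOC100268046 had 3.77 and 1.77, and LOC100253738 had 1.21 and 1.34. A 0 means no read at this depth. The rule asks for a 0 in 2 leaf pools upward and in 6 inflorescence libraries downward. The upward and downward counts are therefore not on equal terms. In the line 06C021V0046 alone 152 genes met the rule upward and 18 downward.

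Of genes with a few leaf reads, 2 without another name were chosen by the size of their change. LOC100249955 had 185 and 7.59 RPKM at node 1, 822 and 689.5 at node 2 and 1500.5 and 1275 at node 3 of the picovine lines, against 0.269 and 0.165 in the leaf pools (8.16 ± 0.95, adjusted p = 0.000472). LOC100242587 had 109 and 6.06, 1076 and 457, and 2956 and 1411 RPKM at those nodes, against 1.65 and 1.01 (7.21 ± 0.91, adjusted p = 0.000751). At node 1 the lines differed, with 06C021V0046 far above 06C008V0003 in both genes.

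Defence genes that were called were lower in inflorescences. Of 18 defence genes 8 fell and none rose, with a list median of -1.37, where 7.55% of all tested genes fell and 5.39% rose. In 06C021V0046, 12 lay below the leaf pool in all 3 inflorescence libraries, as did 29.6% of all tested genes. CHI1B, a basic chitinase that attacks fungal walls, had 44.6, 25.3 and 12.5 RPKM at nodes 1, 2 and 3 of 06C021V0046 and 67.2, 29.1 and 16.7 RPKM in 06C008V0003, against 540.4 and 178 in the 06C021V0046 and Pinot Meunier L2 leaf pools (-3.43 ± 0.44, adjusted p = 0.000803). PR-1, a pathogenesis-related protein, ran from 0.220 to 0.566 RPKM in inflorescences (median 0.457), against 17.6 and 9.18 in those leaf pools (-3.27 ± 0.29, adjusted p = 9.16e-05). EDS1, a hub of basal immunity in Arabidopsis, ran from 10.3 to 30.9 RPKM (median 14.9) in inflorescences, against 68.6 and 63.6 in the leaf pools (-1.97 ± 0.28). In each of these genes the highest inflorescence library was below the lower leaf pool.

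Other chitinases split. chit1a ran from 5.87 to 20.3 RPKM (median 11.1) in inflorescences, against 124 and 63.2 in the 06C021V0046 and Pinot Meunier L2 leaf pools (-2.88 ± 0.44). CHI4D ran from 0.932 to 12.2 RPKM (median 3.17), against 79.2 and 32.4 (-3.37 ± 0.69, adjusted p = 0.00988), a call lost without the 06C021V0046 leaf pool (0.0895) or with the block over 11 libraries (0.0502). The thaumatin-like gene TL3 ran from 1.95 to 27.7 RPKM (median 6.38) in inflorescences, against 46.6 and 21.5 in the leaf pools (-2.04 ± 0.57, adjusted p = 0.0398), with node 3 of 06C021V0046 inside the leaf range. Its call was lost in the block fits over 8 and 11 libraries (0.102 and 0.145) and without the 06C021V0046 leaf pool (0.226). The chitinase CHI4C was not called, with nodes on both sides of the leaves. It had 2.36 and 0.718 RPKM at node 1, 66.9 and 22.0 at node 2 and 398 and 95 at node 3 of the picovine lines, against 17.1 and 14.7 in the leaf pools. That rise along the nodes was called with each library left out in turn (3.17 ± 0.36 per node, adjusted p = 0.00176).

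The PR10 family, small proteins induced by pathogens, had no common direction. Of its 8 members 2 fell, where 7.55% of all tested genes did. Another 1 lay wholly above the leaf pools without a call, as did 10.9% of all tested genes, called or not. PR10.4 ran from 0.285 to 1.74 RPKM in inflorescences (median 0.776), against 6.31 and 4.98 in the 06C021V0046 and Pinot Meunier L2 leaf pools (-1.87 ± 0.21), and PR10.8 from 0.593 to 3.05 RPKM (median 0.777), against 6.37 and 3.53 (-1.46 ± 0.35). The call of PR10.8 was lost without the 06C021V0046 leaf pool (0.128). PR10.5 had 0.193 to 0.433 RPKM at nodes 1 and 2 and 9.02 and 7.26 at node 3, against 0 and 0.0938. PR10.7 was the most abundant, with 386, 768 and 1191 RPKM at nodes 1, 2 and 3 of 06C021V0046 and 188, 629 and 1047 in 06C008V0003, against 252 in leaves of 06C021V0046 and 97.4 in leaves of Pinot Meunier L2, and was not called (1.91 ± 0.81, adjusted p = 0.157). PR1, a defence gene outside the 8 PR10 names, ran from 496 to 1609 RPKM in inflorescences, against 3338 in leaves of 06C021V0046, above all of them, and 848 in leaves of Pinot Meunier L2, within their range. How reads shared by near-identical copies were counted is not given in the sources used here, so values within the PR10 family are uncertain as to the copy.

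Of 7 MLO genes, a family of membrane proteins that powdery mildew needs for entry, 6 were tested and 2 fell. The share that fell over all tested genes was 7.55%. MLO11 ran from 0.249 to 2.57 RPKM in inflorescences (median 0.415), against 4.36 and 4.19 in the leaf pools (-1.67 ± 0.29, adjusted p = 0.00439). MLO7 ran from 0.694 to 3.73 RPKM (median 1.29), against 5.27 and 4.47 (-1.23 ± 0.29, adjusted p = 0.0185), a call lost without either leaf pool. The abundant members MLO5 and MLO15 were not called, at 31.5 ± 3.89 and 44.8 ± 14.8 RPKM in inflorescences (SD, n = 6), against 31.8 and 29.2 and against 33.5 and 20.2 in the 06C021V0046 and Pinot Meunier L2 leaf pools.

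Of 5 photosynthesis genes 2 fell and none rose, where 7.55% of all tested genes fell, and NDHM alone kept its call in every setting run. All 5 lay below the leaf pool in each inflorescence library of 06C021V0046, as did 29.6% of all tested genes. NDHM, part of the NDH complex of chloroplasts, had 5.22 and 4.88 RPKM at node 1, 8.93 and 7.26 at node 2 and 9.13 and 12.1 at node 3 of the picovine lines, against 36.3 and 27.5 in the leaf pools (-1.93 ± 0.23, adjusted p = 0.000619). PSBP1, of the oxygen-evolving complex, ran from 96.0 to 336 RPKM in inflorescences (median 170.3), against 337 and 637 (-1.51 ± 0.40, adjusted p = 0.0335), so that the node 1 library of 06C021V0046 nearly equalled its own leaf pool. That call was lost without the Pinot Meunier L2 leaf pool (0.313) and in both block fits (0.1 and 0.414). CHLH, a subunit of the enzyme that puts magnesium into chlorophyll, had 63.4, 56.9 and 8.25 RPKM at nodes 1, 2 and 3 of 06C021V0046 and 66.9, 91.3 and 25.7 in 06C008V0003, against 102 and 177 in the leaf pools, and was not called (adjusted p = 0.0573). PSBP2 was not called, at 22.7 to 46.5 RPKM in inflorescences, against 46.3 in the Pinot Meunier L2 leaf pool. PIFI was not called either (change 0.12), and at 6.14 to 13.5 RPKM all 6 inflorescence libraries lay above that leaf pool, which had 4.95 RPKM.

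The flavonoid pathway makes anthocyanins, flavonols and tannins. Of 15 members 1 rose and 1 fell, with a median of 0.09, shares near those of all tested genes (5.39% and 7.55%). In 06C021V0046, 9 members lay above the leaf pool in all 3 inflorescence libraries, as did 23.0% of all tested genes. DFR, the reductase shared by the anthocyanin and tannin branches, ran from 178 to 249.8 RPKM in inflorescences (median 199), against 129.5 and 100.1 in the leaf pools (0.87 ± 0.22, adjusted p = 0.0286), a call lost in both block fits (0.0855 and 0.203), without the Pinot Meunier L2 leaf pool (0.222) and without 3 of the inflorescence libraries in turn. LDOX, LAR1 and FLS1, of the anthocyanin, tannin and flavonol branches, also had no overlap with leaves, without a call. LAR1 ran from 43.8 to 101 RPKM in inflorescences, against 33.5 and 26.6, LDOX from 586 to 1116, against 493 and 496, and FLS1 from 110.4 to 169.6, against 73.0 and 83.4 (adjusted p = 0.0702, 0.147 and 0.0644). In the block fit over 8 libraries 6 members were called higher and 1 lower, where 15.4% of all tested genes were called in either direction.

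For some flavonoid genes the Pinot Meunier L2 leaf pool was far above that of 06C021V0046. The chalcone synthase gene CHS1 had 419.6, 208 and 125 RPKM at nodes 1, 2 and 3 of 06C021V0046 and 131, 124 and 78.1 in 06C008V0003, against 106 in the leaf pool of the first line and 338 in that of Pinot Meunier L2. CHS2 had nearly the same values, and the 2 copies may share reads. F3'H, which adds 1 hydroxyl group to the B ring, had 127, 37.7 and 26.9 RPKM at nodes 1, 2 and 3 of 06C021V0046 and 34.0, 17.5 and 11 in 06C008V0003, against 24.6 and 86.7 in the leaf pools. For CHS1, CHS2 and F3'H each library of 06C021V0046 inflorescences was above its own leaf pool and 5 of the 6 inflorescence libraries were below the Pinot Meunier L2 pool. The 06C021V0046 and Pinot Meunier L2 leaf pools lay closer together for CHS3 (183 and 233 RPKM) and F3H (277 and 365). CHI went the other way, with 141 and 90.3 RPKM in those pools. F3'5'H, which adds the hydroxyl groups of blue delphinidin pigments, fell, with 3.91 and 3.33, 8.25 and 6.26, and 9.97 and 7.39 RPKM at nodes 1, 2 and 3, against 43.1 and 58.2 in the leaf pools (-2.84 ± 0.30, adjusted p = 0.000282), and kept the call in every setting run.

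**Figure D3:**
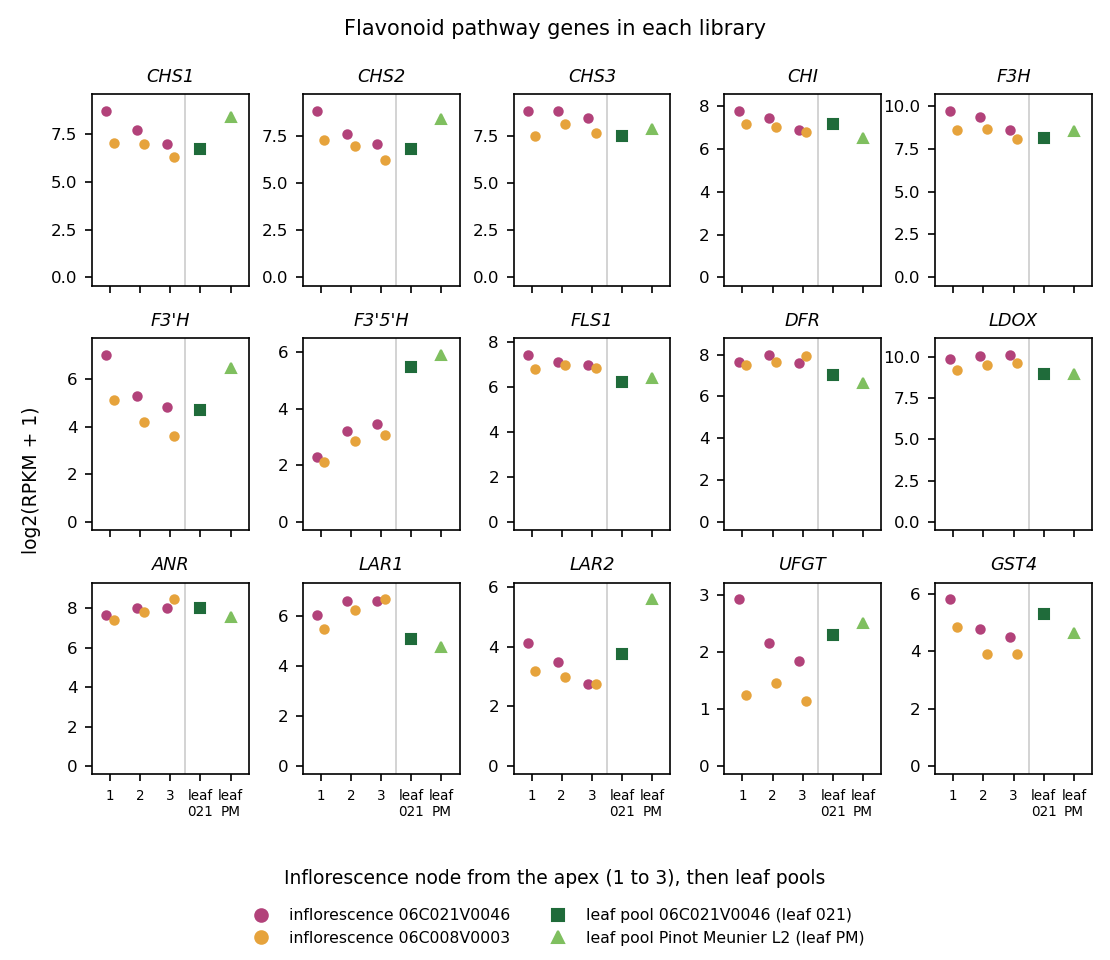
Expression of the 15 flavonoid pathway genes as log2(RPKM + 1) (vertical axis) at inflorescence nodes 1, 2 and 3 and in the 2 leaf pools; each point is 1 library. For CHS1, CHS2 and F3'H the leaf pools lie far apart, at 106 and 338, 111 and 345, and 24.6 and 86.7 RPKM in 06C021V0046 and Pinot Meunier L2, whereas for F3'5'H both lie above all inflorescences.

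In the phenylpropanoid route that feeds this pathway, 1 of 7 genes rose and 1 fell. The shares over all tested genes were 5.39% and 7.55%. OMT1, an O-methyltransferase, had 53.8, 30.9 and 22.9 RPKM at nodes 1, 2 and 3 of 06C021V0046 and 26.3, 19.4 and 14.2 in 06C008V0003, against 6.14 and 11.4 in the leaf pools (1.50 ± 0.35, adjusted p = 0.0177, 0.133 without the 06C021V0046 leaf pool). GVVPAL2, of the phenylalanine ammonia-lyase family, was low throughout, with 0.151 to 0.940 RPKM in inflorescences, against 1.44 and 3.14 (-1.13 ± 0.26), and lost the call in both block fits (0.107 and 0.182) and without the Pinot Meunier L2 leaf pool (0.172). IFRL6, an isoflavone reductase-like gene and the 1 of 4 tested members of its family that was called, ran from 42.6 to 73.2 RPKM in inflorescences (median 64.8), against 20.6 and 22.1 (1.41 ± 0.21, adjusted p = 0.00163).

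Of the regulators with MYB and WRKY names, those called fell. Over all tested genes 7.55% fell, a share near that of the MYB genes. MYB30 ran from 4.79 to 10.6 RPKM in inflorescences (median 6.52), against 19.4 and 28.2 in the leaf pools (-1.68 ± 0.33, adjusted p = 0.00779, 0.0995 when the Pinot Meunier L2 leaf pool was left out), and was the one MYB gene of 11 called. MYBPA1, an activator of tannin synthesis, ran from 116 to 199 RPKM in inflorescences, against 98.6 and 97.3, without a call. Of 3 WRKY genes, whose class responds to pathogens and wounding, 2 fell: the gene listed as WKRY ran from 7.81 to 17.9 RPKM (median 12.7), against 28.3 and 35.0 (-1.34 ± 0.27, adjusted p = 0.00847), and WRKY2 from 0.477 to 2.99 RPKM (median 1.38), against 3.11 and 6.05 (-1.13 ± 0.30, adjusted p = 0.032). WKRY lost the call without the Pinot Meunier L2 leaf pool (0.0914) and with the block over 11 libraries (0.0786). WRKY2 lost it in the block fits over 8 and 11 libraries (0.0664 and 0.3) and with any of the 6 inflorescence libraries or that leaf pool left out (0.0561 to 0.293).

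Sugar handling differed gene by gene. Of 26 transporter and invertase genes 18 were tested, 1 rose and 3 fell, where 5.39% of all tested genes rose and 7.55% fell. SWEET15, a sugar exporter, had no read in leaves and 3.58 and 0.456 RPKM at node 1, 71.8 and 45.8 at node 2 and 291 and 104 at node 3 of 06C021V0046 and 06C008V0003, at least 869.9-fold higher (4.90 ± 0.63, adjusted p = 0.000803, 0.0879 with the node slope left out of the model). The cell wall invertase CWINV, which splits sucrose outside the cell, ran from 2.19 to 7.20 RPKM in inflorescences (median 4.69), against 28.3 in leaves of 06C021V0046 and 12.8 in leaves of Pinot Meunier L2 (-1.94 ± 0.40, adjusted p = 0.0101, 0.0912 without the first pool). NIN1, a neutral invertase of the cell interior, ran from 19.8 to 39.3 RPKM (median 29.2), against 59.3 and 73.7 (-1.17 ± 0.24, adjusted p = 0.0102, 0.106 with the Pinot Meunier L2 leaf pool left out). The sucrose transporter VVSUC27 ran from 2.31 to 8.78 RPKM (median 4.07), against 9.79 and 44.3 (-2.11 ± 0.47, adjusted p = 0.015). For VVSUC27 the change in 06C021V0046 alone was -0.77, and the call was lost in both block fits (0.11 and 0.196) and without the Pinot Meunier L2 leaf pool (0.181).

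Among uncalled sugar transporters, HT2, a hexose transporter, ran from 13.5 to 38.4 RPKM in inflorescences with no overlap with the leaf pools at 12.1 and 9.87 (adjusted p = 0.0773). HT5 lay on both sides of leaves, with 3.14 and 2.21 RPKM at node 1, 7.92 and 6.16 at node 2 and 59.2 and 44.9 at node 3, against 10.1 and 16.2. HT15 to HT19 were near the detection floor, with 0 to 0.163 RPKM in inflorescences, against 0.641 RPKM in the 06C021V0046 leaf pool for each, and 4 of these 5 genes had identical values in both leaf pools, so they cannot be told apart as copies.

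**Figure D4:**
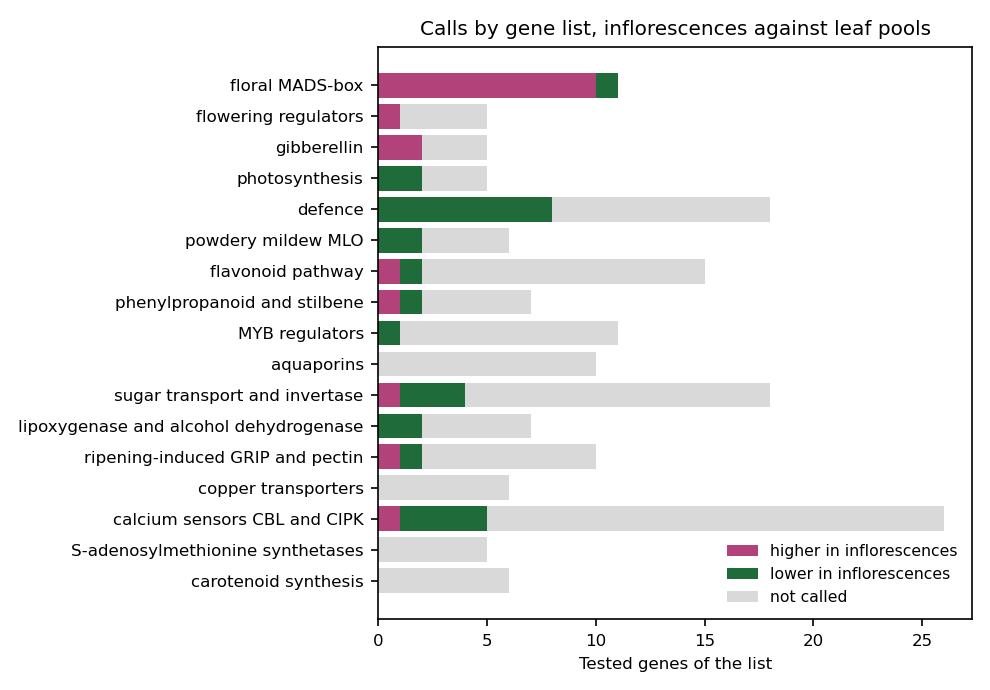
Tested genes of each list with at least 5 tested members (horizontal axis, number of genes), split into genes higher in inflorescences than in leaf pools, lower, and not called; each bar is 1 list. The floral MADS-box bar is filled by calls (10 higher, 1 lower), whereas aquaporins, copper transporters, S-adenosylmethionine synthetases and carotenoid genes hold no call.

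The remaining lists held few calls, each in a single direction except for the ripening genes. Of 10 aquaporins, 6 copper transporters, 5 S-adenosylmethionine synthetases, 6 carotenoid genes, 2 germin-like genes and 2 terpene and aroma genes tested, none was called by limma. Over all tested genes 12.9% were called. Of these 31 genes, 8 had an unadjusted p under 0.05. The share of all tested genes under that p is not given here, so the 8 cannot be read as many or few. VvCASPL2C1, a relative of the proteins that build the Casparian strip of roots, fell, with 22.7 and 30.7 RPKM at node 1, 6.32 and 7.04 at node 2 and 3.88 and 4.82 at node 3, against 66.5 and 51.1 in the leaf pools (-2.51 ± 0.30, adjusted p = 0.000592). GRIP21 and GRIP32, named for their induction in ripening berries, went opposite ways. GRIP21 ran from 95.8 to 295 RPKM in inflorescences (median 182), against 48.9 and 49.0 (1.78 ± 0.39), and GRIP32 from 47.8 to 149 RPKM (median 72.7), against 187 and 208 (-1.38 ± 0.30), and both lost the call without either leaf pool and with the block over 11 libraries.

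Some genes fell against 1 leaf pool more than against the other. HSP101, a chaperone that dissolves heat-damaged protein aggregates, ran from 1.45 to 13.6 RPKM in inflorescences (median 10.2), against 25.6 in leaves of 06C021V0046 and 251 in leaves of Pinot Meunier L2 (-3.30 ± 0.69, adjusted p = 0.0107), and lost the call without the second pool (0.109) and with the block over 11 libraries (0.0758). HsfA2, the heat stress factor that activates such chaperones, lay between the pools, at 17.3 to 23.4 RPKM in inflorescences, against 7.32 and 72.4. The lipoxygenase LOXO ran from 1.1 to 5.08 RPKM, against 4.21 and 19.9 (adjusted p = 0.0487), and LOX from 1.84 to 7.21 RPKM, against 16.0 and 7.02 (adjusted p = 0.0488). The adjusted p of LOXO was 0.521 without the Pinot Meunier L2 leaf pool and 0.306 and 0.648 in the block fits over 8 and 11 libraries, with a change of -0.46 in 06C021V0046 alone. That of LOX was 0.302 without the 06C021V0046 leaf pool, and both genes missed the threshold with any inflorescence library left out, with no filter and with a pseudocount of 0.1. Of the 1491 genes that fell, 343 differed by at least 2-fold between the leaf pools, with the Pinot Meunier L2 pool higher for 254, and over all 19761 tested genes 3097 did. Of the 1065 that rose, 96 did, with the 06C021V0046 pool higher for 70. Genotype and leaf position cannot be told apart for the Pinot Meunier L2 pool.

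Of the other named falls, PALM1, which in Medicago shapes compound leaves, had 0.350 RPKM at most in inflorescences and no read in either node 3 library, against 2.16 and 10.4 in the 06C021V0046 and Pinot Meunier L2 leaf pools (-2.40 ± 0.38, adjusted p = 0.00265). G1 ran from 18.4 to 44.7 RPKM in inflorescences, against 158 and 118 (-2.21 ± 0.33, adjusted p = 0.00177), and both genes kept the call in every setting run. BAP1 ran from 0.308 to 2.44 RPKM, against 10.2 and 10.1 (-2.45 ± 0.42), and missed the threshold with the block over 11 libraries (0.0617). VVGT6, a flavonol glycosyltransferase, ran from 0.455 to 4.14 RPKM, against 5.28 and 21.4 (-2.24 ± 0.42), and missed it without the Pinot Meunier L2 leaf pool (0.0621).

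Some genes without a call on the node mean left the leaf range at node 3. Of the list members without a call, 19 had a called rise along the inflorescence nodes, and for 17 of them both node 3 libraries lay above both leaf pools. For 11 of these 17 neither node 1 library did. MYB24, which in Arabidopsis acts in late stamen development, had at most 0.0913 RPKM at nodes 1 and 2 and 13.3 and 56.3 RPKM at node 3 of 06C021V0046 and 06C008V0003, with no read in either leaf pool. The terpene gene GERA had at most 0.0971 RPKM at nodes 1 and 2 and 56.9 and 314 RPKM at node 3, against 0 and 0.273 in the leaf pools. The copper transporter CTR3 had at most 1.05 RPKM before node 3 and 86.4 and 29.2 RPKM there, with no read in leaves. GRIP22 had 0.0782 to 0.447 RPKM at nodes 1 and 2 and 18.6 and 8.48 at node 3, with no read in leaves. CCOAMT, a methyltransferase of lignin synthesis, had 12.2 to 29.7 RPKM at nodes 1 and 2 and 220.1 and 85.7 at node 3, against 35.8 and 31.8. The slopes of these 5 genes lay between 1.50 ± 0.31 (CCOAMT) and 3.50 ± 0.69 (GERA) per node, and each missed the threshold without the node 3 library of 06C021V0046 (0.101 to 0.114, and 0.0827 for CTR3). Over all 17205 uncalled genes, 870 had a called rise and 1560 a called fall along the nodes.

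Genes that were lower in inflorescences often lay side by side. Of 16169 tested genes with a place in the RefSeq table, 1176 of those that fell could be placed, and 360 of them (30.6%) had a neighbour that also fell, where 13.5% of all placed genes had such a neighbour. Of 900 placed genes that rose, 169 (18.8%) had a neighbour that rose, where 10.7% of all placed genes did. There were 37 runs of at least 3 adjacent genes that fell, the longest of 11 genes, and 14 runs that rose, the longest of 5. The order of genes is that of the assembly ASM3070453v1, which may differ from the build behind the values.

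One run holds F3'5'H and 8 neighbours. All 9 fell, by 1.27 to 3.23 on the log2 scale, with no overlap between organs. LOC100267840, in the same run, had 5.31 and 4.62 RPKM at node 1, 13.4 and 8.79 at node 2 and 15.1 and 11 at node 3, against 76.5 and 110.5 in the 06C021V0046 and Pinot Meunier L2 leaf pools. Like F3'5'H it was lowest at node 1 in both lines. In the block fits 7 and 5 of the 9 were called, and 6 with each library left out in turn.

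In a run of 9 genes led by LOC100242646, that gene had 43.1, 13.4 and 6.51 RPKM at nodes 1, 2 and 3 of 06C021V0046 and 89.8, 21.5 and 4.15 in 06C008V0003, against 202 and 396 in the leaf pools (-3.89 ± 0.44, adjusted p = 0.000396). It was highest at node 1, the opposite of the F3'5'H run. In a run of 6 genes around LOC100268056, the inflorescence means lay between 0.561 and 1.37 RPKM, against 7.45 to 38.3 RPKM in leaves of 06C021V0046 and 156 to 371 RPKM in leaves of Pinot Meunier L2. The longest run that rose, 5 genes from LOC100247065, had inflorescence means of 8.34 to 37.7 RPKM, against 1.96 to 15.7 and 1.15 to 9.65 RPKM in those leaf pools. Reads shared by near-identical neighbours were counted in a way not given in the sources used here, so the number of separate genes in a run is uncertain.

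**Figure D5:**
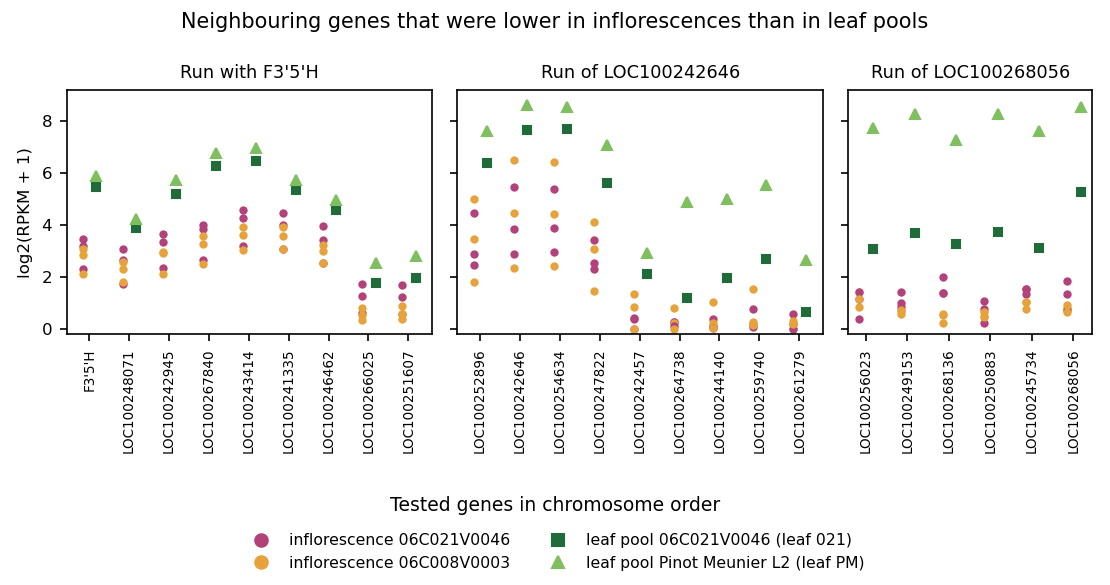
Expression as log2(RPKM + 1) (vertical axis) of the genes of 3 runs of adjacent genes that fell (horizontal axis, genes in the order of the assembly); each point is 1 library. In the run with F3'5'H the 2 leaf pools lie close together, and in the run of LOC100268056 the Pinot Meunier L2 pool (156 to 371 RPKM) stands far above that of 06C021V0046 (7.45 to 38.3 RPKM).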

How the data were processed

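Messenger RNA libraries made with the Illumina protocol were sequenced from single ends, per the labels' protocols. Bowtie 0.12.7 and TopHat 1.2.0 are named in the submitters' processing notes. The counting tool, genome build and annotation are not given in the sources used here. The values deposited by the authors are RPKM per gene number, for 25771 genes in each of 11 libraries. Whole reads could be recovered from the RPKM steps (100% of values, to within 0.01 read), and ratios, floors of 3 reads and 95% intervals rest on them and cover counting error only. The shortest gene length giving whole reads was taken, so genes read in few libraries pass easily and may be given too few reads. Names came from the RefSeq table of ASM3070453v1, which matched 18647 of 25771 gene numbers (72.4%) and was used for names and neighbours only.

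Genes with at least 1 RPKM in at least 2 libraries (19761) entered a two-sided test on log2(RPKM + 1) in limma 3.58.1 (R 4.3.3), with organ means, a linear node slope in inflorescences and tendrils, a variance trend and Benjamini-Hochberg adjustment. The fit had 6 residual degrees of freedom, and the scripts were tested on simulated data. Replicates are the 2 picovine lines in inflorescences and 2 genotypes in leaves, and tendrils came from Pinot Meunier L2 alone. The p-values of the main fit therefore measure a spread that mixes lines, leaf genotypes and departures from a linear node slope. In the fits with genotype as a block both leaf pools are fitted exactly. The p-values of those fits rest on the spread of inflorescences, and of tendrils over 11 libraries, and hold none between leaves. The main fit treated the nodes of a line as independent libraries. The numbers pair the lines: deviations of same-numbered libraries correlated at 0.629, 0.546 and 0.689 between nodes, and genotype was tried as a block. Other alternatives were the pseudocount, the filter, the scaling, the slope, the trend, the libraries in the fit and each library left out.

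Named genes were those of the gene lists, the called genes with a name and the largest change, and the unnamed genes with the largest change. Genes chosen by the size of their change had 5 RPKM or more on average in the higher organ. List members had no such minimum, and GVVPAL2, MLO7, MLO11 and WRKY2 were below it. Members, lists and tests were chosen with earlier results of these data known. CIPK02, CIPK16, NIN1, PR10.4, PR10.8 and TL3 and the uncalled members were described as list members. Name patterns for auxin and cytokinin, cell division, pollen and leaf epidermis matched no gene.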

Additional observations from a re-analysis of the deposited data

Results flagged for a closer look

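In 3 of 53 genes 1 of the 6 inflorescence libraries stood apart from the others, by a gap of more than 0.625 of the whole range. Chance flags about 1 in 20 such groups. MADS2 had 235 RPKM at node 3 of 06C008V0003, and 180.3 to 199 RPKM in the other inflorescence libraries. MADS3 had 57.1 RPKM at node 3 of 06C021V0046, and 90.5 to 109.8 RPKM in the others. MLO11 had 2.57 RPKM at node 1 of 06C008V0003, and 0.249 to 0.845 RPKM in the others.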

How the results depend on the processing

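None of the 53 named genes changed direction under any alternative, and 30 kept their call in all of them. All were chosen for their call, and some also for no overlap between the organs, so a kept direction was largely fixed beforehand. The genotype block over 11 libraries and the fit without the Pinot Meunier L2 leaf pool each lost 16, and the block over 8 libraries lost 6. The count of 2556 genes was 1283 with genotype as a replicate block over 11 libraries, 3042 with the block over 8 libraries, 1651 without the node slope, and 1174 to 2297 with 1 library left out. In the 8 inflorescence and leaf libraries alone, without tendrils, it was 3258. Some genes uncalled in the main fit were called there, such as LAR1, PR10.7 and FLS1 (adjusted p = 0.00354, 0.0108 and 0.0417). LDOX was not (0.111). Of the 2556 calls, 41.7% were upward, 48.9% with quantile normalization, which moved the median change of all genes to 0.07. Within 06C021V0046 the 3 genes became 198 without the filter, 6 and 13 with pseudocounts of 0.1 and 5, 2753 with a slope on node position, and 0 to 13 with 1 library left out. The 2960 slope calls became 4588 and 8463 with the block over 11 and 8 libraries, 4511 in the 8 libraries alone, and 153 to 3535 with 1 library left out. Genes read in inflorescences but not in leaves, 19 by the main rule, numbered 9 at 5 RPKM or more. They numbered 30 with under 0.1 RPKM allowed in leaves and 152 in 06C021V0046 alone. Those read in leaves but not in inflorescences numbered 0, 5 and 18 in these settings, against 3. The cause was not tested. With 2 leaf pools from 2 genotypes, organ and genotype separate only in 06C021V0046, where 1 leaf pool has no replicate. A 0 means fewer reads than this depth detects, and it was asked of fewer libraries in leaves than in inflorescences.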
